A study of Mus musculus with 54 samples.

Results

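The genes described here are 32 genes of glucose breakdown and of the response to low oxygen: 17 glycolytic enzymes and enzyme regulators, 5 glucose or lactate transporters, 2 pyruvate dehydrogenase kinases, the hypoxia-inducible factor Hif1a with 2 of its oxygen-sensing regulators, and 5 further genes that hypoxia-inducible factors are known to activate. They were chosen by name, though with earlier results of these data known. All 32 were in the deposited count table of 16632 genes, and all 32 were among the 13169 genes that had enough counts to be tested. Together they held between 0.407% and 0.789% of the counts of a library.

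The study asked how microglia, the resident macrophages of the brain, respond when they take up alpha-synuclein (aSyn), the protein that aggregates in Parkinson disease, and when cells that carry it meet cells that do not. Primary microglia of neonatal C57BL/6 mice were grown over an astrocyte layer in medium with L929 cell supernatant, then shaken off that layer. The untreated group had 6 libraries from 4 experiments, and the aSyn-treated group had 4 libraries of cells given 1 µM aSyn tagged with the dye Atto-488 for 14 h. Donor cells had received the same aSyn, acceptor cells had received CellTracer Violet and no aSyn, and the populations were sorted apart by flow cytometry after co-culture. Donors had 3, 4, 4, 3, 4 and 4 libraries and acceptors 3, 4, 4, 4, 4 and 3 libraries at 0, 15, 30, 60, 150 and 300 min. The labels do not say whether the untreated and aSyn-treated cells also passed through the sorter, what form the aSyn had, or what the 0 min samples went through. All groups share the astrocyte layer and the L929 supernatant.

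The 54 libraries held 7807389 to 15537493 counts (median 13036175.5). Replicate numbers are taken here as experiments 1 to 4, whose cells were labelled as passage 3 in experiment 1, passage 1 in experiment 2 and passage 2 in the other 2. Nothing in the labels says that same-numbered groups came from separate animals or cultures, so the p-values measure the spread between these samples. All 12 microglia markers were above 0 in all 52 units, where a unit is 1 library or the sum of same-numbered untreated libraries. The homeostatic marker Tmem119 was low, at 0.925 to 13.1 CPM (counts scaled to the size of the library), and Cx3cr1 ranged from 18.5 to 750 CPM. The ribosomal RNA gene Rn45s held a mean share of 18.2% of the counts in libraries of experiment 4, against 6.60% elsewhere. The summed level of 8 astrocyte markers was 9.69, 16.4, 69.5 and 131 CPM in untreated experiments 1 to 4 and 9.87, 8.46, 15.7 and 34.9 CPM in aSyn-treated cells, with Gfap at 0 in 18 of the 52 units, Aqp4 in 27 and Gja1 in 17. In bulk RNA, fewer cells of a type and less RNA per cell cannot be told apart.

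Glycolysis splits glucose into pyruvate, and most of the enzymes are shared by all cells, while the first, regulated steps and the transporters set how much glucose enters. Macrophages and microglia are known to draw more on glycolysis when activated. Hypoxia-inducible factors are stabilised when prolyl hydroxylases such as those encoded by Egln1 and Egln3 lack oxygen or are blocked. They bind a short DNA core next to many glycolytic genes, and the factor of Hif1a can also accumulate in inflammatory activation with oxygen present.

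That core, the hypoxia response element, reads ACGTG or GCGTG. Promoter windows of 250 bases before the start site were taken from RefSeq (GRCm38.p6), with both strands searched. A window of at least 1 start site held a match for 28 of the 30 members in that table (93.3%), against 60.6% of the 10420 tested genes and 41.5% of all 27025 genes there. Among single windows, 35 of 43 from members held a match, against 38.6% of the 32851 windows searched, which include those of genes not tested. The median GC content was 62.8% in members' windows, 59.6% in those of tested genes and 52.4% in all windows. The windows of 4 members whose levels recur below, for Ldha and Pdk1 1 of 2 windows each, are shown because they hold matches of both forms and from 1 to 5 of them. They run 5′ to 3′ on the gene's strand and end at the base before the start site, and capitals mark the matches. On the printed strand a match of the other strand reads CACGT or CACGC, and CACGTG holds overlapping matches of both strands.
Hk2: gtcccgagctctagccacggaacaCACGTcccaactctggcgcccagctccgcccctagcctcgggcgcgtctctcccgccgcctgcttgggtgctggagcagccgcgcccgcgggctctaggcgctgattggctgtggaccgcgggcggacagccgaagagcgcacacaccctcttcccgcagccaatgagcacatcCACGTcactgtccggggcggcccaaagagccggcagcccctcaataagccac
Pgk1: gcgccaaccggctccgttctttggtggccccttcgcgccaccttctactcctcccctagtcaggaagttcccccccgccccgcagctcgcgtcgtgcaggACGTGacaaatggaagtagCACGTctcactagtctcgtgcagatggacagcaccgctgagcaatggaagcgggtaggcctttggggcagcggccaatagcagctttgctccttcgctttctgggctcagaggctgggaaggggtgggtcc
Ldha: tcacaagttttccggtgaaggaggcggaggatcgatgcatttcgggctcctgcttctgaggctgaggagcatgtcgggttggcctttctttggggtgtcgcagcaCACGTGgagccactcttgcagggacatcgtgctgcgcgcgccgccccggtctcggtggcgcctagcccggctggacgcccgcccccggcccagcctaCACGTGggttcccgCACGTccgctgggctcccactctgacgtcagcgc
Pdk1: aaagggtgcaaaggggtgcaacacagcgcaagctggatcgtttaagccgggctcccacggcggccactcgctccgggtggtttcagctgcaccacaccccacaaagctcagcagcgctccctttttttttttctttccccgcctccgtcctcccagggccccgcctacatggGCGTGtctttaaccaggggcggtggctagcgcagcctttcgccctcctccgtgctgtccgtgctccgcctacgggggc

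The Hk2 window (chr6:82774455-82774704, minus strand) and the Pgk1 window (chrX:106186850-106187099, plus strand) each held 2 matches. The Ldha window (chr7:46845554-46845803, plus strand) held 5, and the Pdk1 window (chr2:71872974-71873223, plus strand) held 1, of the GCGTG form. The transporter gene Slc2a1 had 2 matches, Slc2a6 had 4, and Vegfa had 0 in one window and 2 in the other. The second windows of Ldha and Pdk1, not shown, held 1 and 0. Gpi1 and Tpi1 were the 2 members without a match. A match is a run of letters and was not measured as a bound site.

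The first comparison asks what aSyn exposure alone did to these genes. In aSyn-treated cells, 5 of 17 glycolytic enzyme genes and 2 glucose transporter genes were called higher in a fit with the experiment as a block, and 1 glucose transporter gene was called lower. The hexokinase genes Hk2 and Hk3, Pgk1, Pgam1 and Pkm of the lower pathway, and the transporters Slc2a1 and Slc2a6 had fitted levels 1.35 to 1.83 times those of untreated cells. Vegfa, the gene of the angiogenic growth factor VEGF-A, had a fitted level 6.45 times as high. Pdk1, whose kinase shuts pyruvate out of mitochondrial oxidation, was 2.16-fold lower, and the glucose transporter gene Slc2a3 was 2.71-fold lower. These folds come from that edgeR quasi-likelihood fit, in which all 10 passed an adjusted p of 0.05, 8 higher and 2 lower. Without that block, edgeR called 0 of the 32, with 11 at an unadjusted p under 0.05 (8 higher, 3 lower), against 17.1% of all genes at that level. DESeq2 without the block called 4, Hk3, Pdk1, Pgk1 and Pkm.

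The calls have to be read against all genes. The blocked fit called 19.0% of the 13169 genes, 8.88% as higher and 10.1% as lower, and 10 of 32 members. Without the block the share was 2.50%. The median log2 fold change of the members was 0.25 with the block and 0.27 without it, beside −0.05 and −0.04 over all genes. By role, 5 of 17 enzymes rose and 0 fell with the block, 2 of 5 transporters rose and 1 fell, 1 of 2 pyruvate dehydrogenase kinases fell, 0 of 3 genes of the factor and its regulators were called, and 1 of 5 further targets rose. The medians were 0.28 for the enzymes and 0.84 for the transporters.

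Among the enzymes, the hexokinases carry out the first step, the phosphorylation that traps glucose in the cell. Hk2, the inducible form (chr6:82725025-82774454, GRCm38), measured 30.8, 47.1, 36.4 and 47.3 CPM in untreated experiments 1 to 4 and 57.2, 53.4, 54.9 and 99.9 CPM after aSyn. Every aSyn value exceeded every untreated value, and experiment 4 stood far above the other aSyn values. The log2 fold change of Hk2 was 0.68 (SE 0.19, adjusted p = 0.00894 with the block; adjusted p = 0.259 without). Hk3, the form typical of white blood cells (chr13:55005985-55021385), measured 123, 117, 162 and 100.4 CPM untreated and 165, 163, 274 and 199 CPM after aSyn. These groups did not overlap either, and Hk3 rose in the blocked fit by 0.66 (SE 0.15, adjusted p = 0.00152; 0.0853 without the block). Hk1, the housekeeping form, gave −0.14 (adjusted p = 0.663 with the block).

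In the later steps of the pathway, Pgk1 encodes the first enzyme that makes ATP (chrX:106187100-106203699). Its level was 383, 301, 361 and 337 CPM untreated and 469, 443, 711 and 807 CPM after aSyn, again with no overlap. Pgk1 rose by 0.76 (SE 0.17, adjusted p = 0.00134 with the block; 0.0888 without). Pgam1, the next enzyme, measured 547, 378, 440 and 575 CPM against 557, 469, 832 and 831 CPM, higher in each experiment but by 0.02 in experiment 1 on the log2 scale. Its blocked fold change was 0.44 (SE 0.13, adjusted p = 0.0118; 0.32 without). Pkm, pyruvate kinase, measured 1558, 1450, 1297 and 1130 CPM against 1522, 1641, 2122 and 2104 CPM. Experiment 1 went the other way, and the fold change was 0.44 (SE 0.13, adjusted p = 0.0132; 0.0985 without).

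The other 12 enzyme genes were not called in either fit. Ldha, which turns pyruvate into lactate, came closest with 299, 316, 290 and 311 CPM untreated against 322, 338, 557 and 454 CPM. Its groups did not overlap, and its log2 fold change was 0.42 (adjusted p = 0.0628 with the block). Gpi1, the phosphofructokinase subunits Pfkl and Pfkp, the regulator Pfkfb3, the aldolase Aldoa, the triose enzymes Tpi1 and Gapdh and the enolase Eno1 had blocked values between 0.08 and 0.42, and Hk1, the muscle-type subunit Pfkm and the regulator Pfkfb4 values from −0.82 to −0.08. Reads of 50 bases could not always be assigned to 1 gene here: 7 members share 50-base words of their last 300 transcript bases with other genes, among them Eno1 for 86.9% of its words and Gapdh for 78.3%, and how such reads were counted is not given in the sources used here. Pkm shares 20.7%, Ldha 20.5%, and Hk2, Pgk1 and Pgam1 none.

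Across the transporters, the direction depended on the isoform. Slc2a1, the basal glucose transporter GLUT1 (chr4:119108711-119137983), measured 70.5, 44.7, 70.8 and 42.0 CPM untreated and 89.2, 77.6, 149 and 105 CPM after aSyn, without overlap. Slc2a1 rose by 0.85 (SE 0.20, adjusted p = 0.00185 with the block; 0.124 without). Slc2a6, the gene of the lysosomal transporter GLUT6, measured 19.3, 61.7, 24.6 and 12.7 CPM against 40.0, 52.3, 54.6 and 51.7 CPM, higher in 3 experiments and lower in experiment 2. Its blocked fold change was 0.87 (SE 0.29, adjusted p = 0.0293; 0.273 without).

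Slc2a3, the high-affinity transporter GLUT3, ran the other way. Its level was 6.36, 3.75, 2.74 and 4.71 CPM untreated and 2.80, 1.42, 0.716 and 1.83 CPM after aSyn, so that the groups overlapped at 2.74 and 2.80 CPM while each experiment moved down. The lowest of these rests on 9 counts. Slc2a3 fell by 1.44 (SE 0.39, adjusted p = 0.00812 with the block; 0.218 without). The lactate carriers Slc16a1 and Slc16a3 were higher in each of the 4 experiments and were not called (0.31 and 0.84, adjusted p = 0.243 and 0.0806 with the block).

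Pdk1 (chr2:71873224-71903858) measured 56.7, 27.7, 48.3 and 54.5 CPM in untreated cells and 31.0, 15.0, 34.7 and 11.96 CPM after aSyn. Each experiment moved down, and the groups overlapped only through experiment 2, where both values were low. Pdk1 fell by 1.11 (SE 0.23, adjusted p = 6.13e-04 with the block; 0.102 without), which is the opposite side to Slc2a1, Pgk1 and Hk2, although all 4 are known targets of hypoxia-inducible factors. The second kinase gene, Pdk3, gave 0.07 (adjusted p = 0.801 with the block).

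Hif1a itself measured 48.3, 50.3, 57.3 and 55.4 CPM untreated and 47.2, 42.1, 69.2 and 81.1 CPM after aSyn. Its values fell on both sides of the untreated range, and the fold change was 0.11 (adjusted p = 0.633 with the block). Egln1 and Egln3 gave −0.27 and 0.04 (adjusted p = 0.255 and 0.967). The factor is mainly controlled through its protein, which RNA counts do not measure.

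Of the further hypoxia targets, Vegfa (chr17:46016993-46032369) had the widest range. It measured 2.22, 2.36, 3.34 and 6.71 CPM untreated and 12.4, 15.4, 42.7 and 11.3 CPM after aSyn, with every aSyn value above every untreated one. Vegfa rose by 2.69 (SE 0.71, adjusted p = 0.00708 with the block; 0.201 without). Ddit4, Ankrd37, Ndrg1 and P4ha1, a stress-induced inhibitor of growth signalling, an ankyrin-repeat gene, a stress-response gene and a collagen prolyl hydroxylase subunit, gave −0.11, −0.51, −0.17 and −0.20, none called in either fit. Of these 5 further targets, Vegfa was called higher and the other 4 were not called.

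Counted without a model, 6 members had aSyn values that all lay above the untreated ones: Hk2, Hk3, Pgk1, Ldha, Slc2a1 and Vegfa. That is 6 of 32 beside 4.50% of all genes, and 0 of 32 lay wholly below, beside 3.60%. Counted by experiment, 9 members were higher in all 4 same-numbered pairs (14.8% of all genes) and 3 were lower in all 4 (17.4%), the 3 being Pfkm, Slc2a3 and Pdk1.

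**Figure D1:**
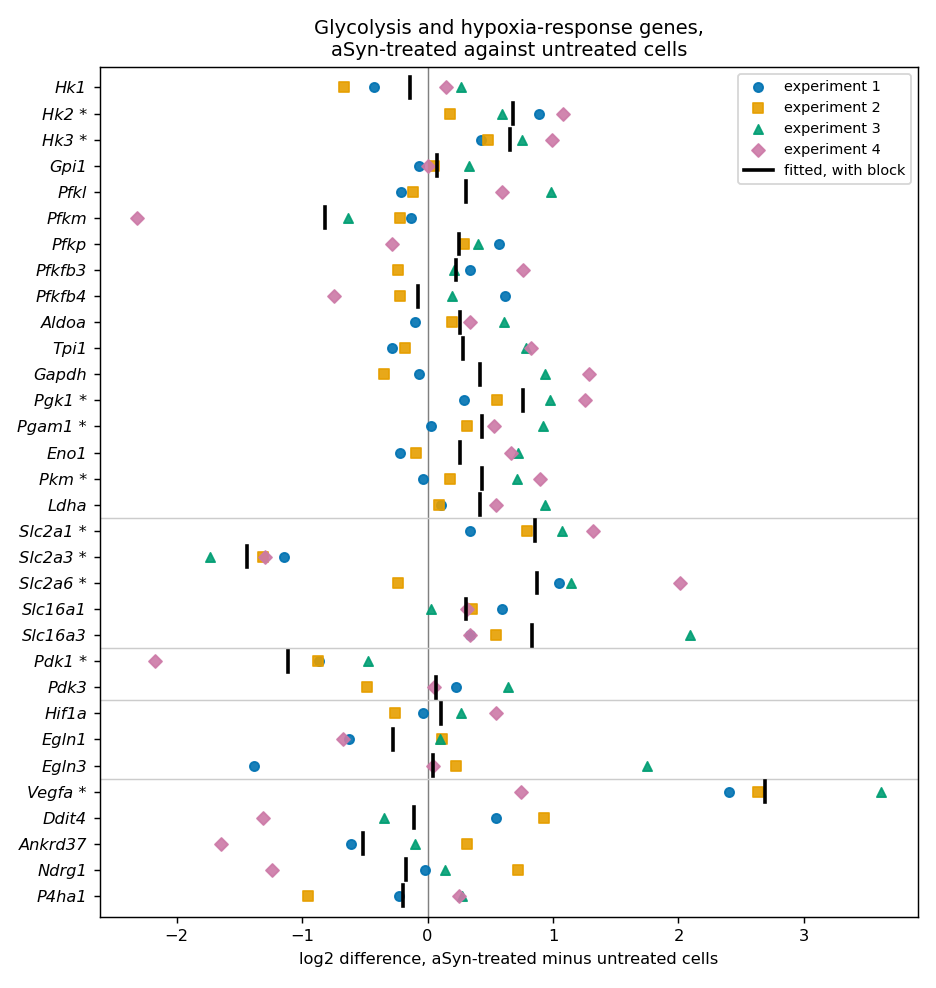
Difference between aSyn-treated and untreated microglia for each of the 32 members (rows, grouped by role), in log2 units of CPM on the horizontal axis. Coloured points are experiments 1 to 4, the black line is the fitted change with the experiment as a block, and an asterisk marks the 10 members called in that fit. Vegfa lies between 0.74 and 3.62, Slc2a1, Pgk1, Hk2 and Hk3 lie right of 0 in all 4 experiments, and Slc2a3 and Pdk1 lie left of it; for most enzymes experiments 3 and 4 lie further right than experiments 1 and 2.

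The experiments did not weigh equally. The median difference over the 32 members was −0.03 in experiment 1, 0.11 in experiment 2, 0.60 in experiment 3 and 0.34 in experiment 4. Experiments 3 and 4 were also those in which untreated cells held the most astrocyte marker RNA (69.5 and 131 CPM) and aSyn-treated cells less of it (15.7 and 34.9 CPM). Both were of passage 2, unlike experiments 1 and 2, so passage and astrocyte signal cannot be told apart in this split. The astrocyte markers had a median log2 fold change of −1.89 with the block, and 4 of 8 were called lower in that fit, Gfap, Aqp4, Slc1a3 and Slc1a2. The summed microglia markers were 6261, 7717, 5978 and 4534 CPM untreated and 5778, 4948, 5154 and 2225 CPM after aSyn. Oligodendrocyte-lineage markers summed to between 120 and 589 CPM untreated and between 85.5 and 254.9 CPM after aSyn.

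In experiments 1 and 2 alone, where the astrocyte sums were 9.69 and 16.4 CPM against 9.87 and 8.46 CPM, the blocked fit called 9 members, 5 of them among the 10 called before, beside 9.43% of all genes, and the members' median was 0.03. Pgk1 (0.43, adjusted p = 0.0418), Hk3 (0.45, adjusted p = 0.0144), Slc2a1 (0.57, adjusted p = 0.04) and Vegfa (2.58, adjusted p = 2.94e-05) were higher there, and Pdk1 was lower (−0.87, adjusted p = 0.00921). The other 4 called were Pfkp and Slc16a3, higher, and Hk1 and P4ha1, lower, so that 6 were higher and 3 lower. Pkm and Pgam1 gave 0.07 and 0.17 and were not called. Hk3, Pgk1, Slc2a1 and Pdk1 were also called in the blocked fit whichever single experiment was left out; these fits called 10, 9, 6 and 7 members without experiment 1, 2, 3 or 4, beside 15.6%, 13.5%, 10.2% and 12.2% of all genes. Of the others, Hk2 was lost without experiment 1 (adjusted p = 0.0775) or 4 (0.0625), Vegfa without 3 (0.111), and Slc2a3 without 2 (0.0503). Pgam1 was lost without 2, 3 or 4 (0.0505, 0.132 and 0.079), Pkm without 3 or 4 (0.14 and 0.186), and Slc2a6 without 1, 3 or 4 (0.155, 0.16 and 0.18).

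The rest of the pathway was counted from lists of other genes. Among 13 other tested glycolysis genes, edgeR called 0 without the block, and 1 rose and 1 fell with it. The gene that fell, Aldoc (−1.72, adjusted p = 0.0152 with the block), is the brain aldolase, strongly expressed in astrocytes, and its untreated level was 2.02, 3.84, 20.5 and 24.6 CPM in experiments 1 to 4, highest where the astrocyte markers were highest. Of 16 other genes of transport and pyruvate use, 2 rose and 2 fell with the block, among the latter the monocarboxylate carrier Slc16a7 (−1.28) and the glucose transporter Slc2a8 (−1.15). The pentose phosphate pathway had 3 of 8 genes higher and 0 lower with the block, and the citric acid cycle 2 of 17 higher, 1 of them, Dlst, also without it (0.33, adjusted p = 0.0224). The part of the astrocyte signal in these list counts was not tested.

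Of 40 other tested genes tied to hypoxia-inducible factors, 4 rose without the block, and 11 rose and 2 fell with it. Rises with the block included those of Nos2, the inducible nitric oxide synthase (5.65, adjusted p = 4.75e-05), Edn1, endothelin 1 (2.87, adjusted p = 0.0488), and Lox, lysyl oxidase (2.32). Lox was also called without the block (2.33, adjusted p = 0.0198). Nos2 measured 0.663, 2.70, 3.58 and 57.5 CPM after aSyn and 0.514 CPM or less untreated, and Edn1 0.589, 2.91, 0.477 and 24.3 CPM against 1.00 CPM or less, so in both genes experiment 4 stood far above levels near 0. The list's median was 0.21 without the block. Epas1, the gene of the related factor HIF-2α, fell with the block (−1.22).

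The next comparison sets donors in co-culture against the aSyn-treated cells. No member passed the test: edgeR called 0 of 32 at each of the 6 times with and without the block, and DESeq2 also called 0. At an unadjusted p under 0.05 there were 0, 0, 0, 0, 0 and 1 members at 0, 15, 30, 60, 150 and 300 min without the block, beside 2.60%, 1.00%, 1.06%, 2.10%, 0.896% and 2.76% of all genes. With the block there were 0, 0, 2, 0, 0 and 3, beside 5.42%, 3.20%, 3.04%, 5.35%, 2.98% and 8.47%. Over all genes edgeR called 0% at the first 5 times and 0.0304% at 300 min, or 0.311% with the block. All these comparisons share the 4 aSyn-treated libraries.

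The member that stood out at 300 min was Vegfa. Its donor levels were 3.16, 2.66, 7.03 and 5.64 CPM, against 12.4, 15.4, 42.7 and 11.3 CPM in aSyn-treated cells. It was the only member whose groups did not overlap there, beside 1.13% of all genes wholly lower. The log2 fold change was −2.32 (SE 0.70, adjusted p = 0.206 with the block; 1 without). Slc2a1 gave −0.53 (SE 0.19, adjusted p = 0.363 with the block). Without experiment 4, the blocked fit called both Slc2a1 and Vegfa lower at 300 min. The share of all genes called in that fit is not given here, so these 2 calls cannot be set against it.

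Acceptors, which had been given no aSyn, were set against the untreated cells. The members called in any of these fits were Pdk1 and Vegfa. Without the block, edgeR called 0 of 32 at all 6 times, with 1, 2, 3, 2, 2 and 0 at an unadjusted p under 0.05 beside 5.67%, 6.38%, 7.27%, 7.61%, 8.18% and 5.46% of all genes. DESeq2 called 1, Vegfa at 60 min. The shares of all genes called by edgeR were 0%, 0%, 0.114%, 0.0683%, 0.137% and 0%. With the block they were 0.919%, 2.22%, 3.54%, 3.83%, 4.69% and 0.623%, and 2 member calls were made. These comparisons share the untreated libraries, whose astrocyte signal was the highest of all groups.

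Pdk1 in acceptors at 15 min measured 34.0, 27.2, 23.8 and 20.3 CPM, against 56.7, 27.7, 48.3 and 54.5 CPM untreated. It was lower in each experiment, though by little in experiment 2, and the change was −0.84 (SE 0.23, adjusted p = 0.0379 with the block; 0.654 without). The call was lost when experiment 1, 3 or 4 was left out (adjusted p = 0.198, 0.152 and 0.118). At the other times the blocked values were between −0.72 and −0.54, none called (adjusted p from 0.055 to 0.336). Acceptors and aSyn-treated cells thus both gave negative values for Pdk1 against the same untreated libraries.

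Vegfa in acceptors split by experiment. At 60 min it measured 2.05 and 2.11 CPM in experiments 1 and 2 and 40.6 and 105 CPM in experiments 3 and 4. The blocked fold change was 2.58 (SE 0.71, adjusted p = 0.0315; 3.32 and 0.281 without the block). In experiments 1 and 2 alone it was −0.16 (adjusted p = 0.904), so the rise rests on experiments 3 and 4. The call was also lost without experiment 1, 3 or 4 (adjusted p = 0.0951, 0.292 and 0.101). The same division stood at 30 min, with 5.40, 3.55, 23.0 and 46.9 CPM, at 150 min, with 2.15, 2.15, 20.2 and 67.4 CPM, and at 300 min, with 3.10, 0.940 and 29.9 CPM in experiments 1, 2 and 4. At 0 min the levels of experiments 1 to 3 were 3.99, 2.50 and 5.46 CPM, and at 15 min those of experiments 1 to 4 were 5.91, 2.84, 8.56 and 17.7 CPM.

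In donors Vegfa was high at first in all experiments. At 0 min it measured 16.2, 15.2 and 47.2 CPM in experiments 1 to 3, and at 15 min 17.1, 17.8, 48.3 and 12.6 CPM. At 60 min it was 4.84, 26.8 and 19.5 CPM in experiments 1, 3 and 4, and by 300 min it lay between 2.66 and 7.03 CPM. In experiments 3 and 4 donors were thus lower at 60 min than the acceptors of the same dish, and in experiment 1 higher. The donor values at 300 min lay wholly below those at 15 min, as for 1.44% of all genes. From 15 to 300 min donors gave −2.59 (SE 0.70, adjusted p = 0.0797 with the block), and the difference from the acceptors' change was −2.67 (SE 1.02, adjusted p = 0.815).

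**Figure D2:**
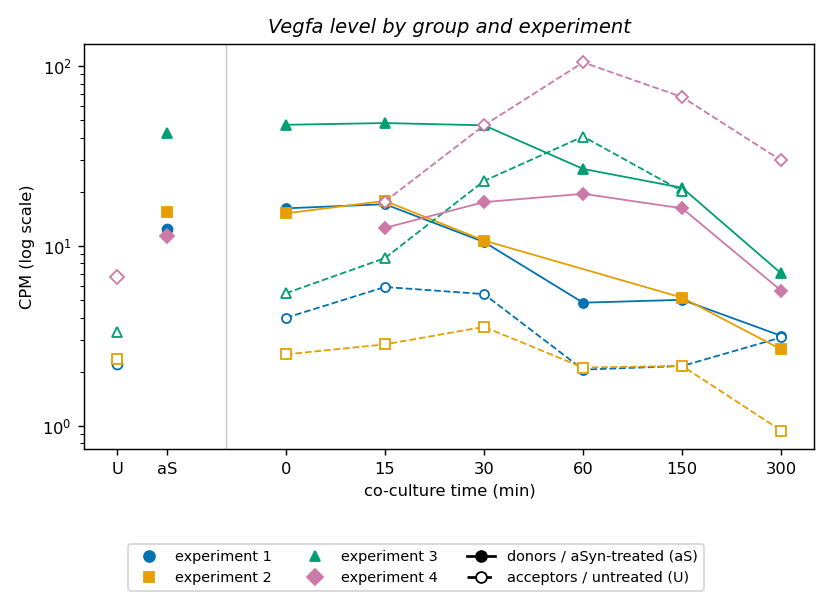
Vegfa level in CPM (log axis) in each experiment over the co-culture in min, with the 6 times drawn at equal steps. Filled points with solid lines are donors and open points with dashed lines acceptors, U and aS at the left are untreated and aSyn-treated cells, and experiment 2 has no donor library at 60 min. Donor values end between 2.66 and 7.03 CPM in all 4 experiments, while acceptors reach 40.6 and 105 CPM at 60 min in experiments 3 and 4 and stay at 2.05 and 2.11 CPM in experiments 1 and 2.

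Donors against acceptors of the same time compares cells that shared a dish from 15 min on (for 0 min this is not stated), and it shares no library with the comparison of aSyn-treated and untreated cells. Donors had higher Hk2, Pfkfb3 and Slc2a1 in the first 30 min, and the difference in Hk2 and Slc2a1 was still called at 60 min. With the block, 4 members were called at 0 min, 7 at 15, 4 at 30, 2 at 60, 1 at 150 and 0 at 300 min, 18 calls in all, of which 17 were higher in donors. Over all genes the shares called were 4.22%, 9.45%, 10.6%, 6.55%, 5.10% and 1.40%. Of these, genes higher in donors made up 2.67%, 4.86%, 5.39%, 3.52%, 2.88% and 0.964% of all genes, and genes lower in donors 1.56%, 4.59%, 5.16%, 3.02%, 2.22% and 0.440%. The called share of the members was above that of all genes at 0 and 15 min. It was little above it at 30 min and below it from 60 min on. For calls higher in donors alone, it was above until 60 min and near it at 150 min, on few genes. All times draw on the same 4 experiments, so their calls are not independent. Without the block edgeR called 0 members at every time, with 5, 7, 6, 7, 4 and 2 at an unadjusted p under 0.05 beside 7.46%, 11.4%, 11.4%, 9.81%, 8.40% and 6.11% of all genes, and DESeq2 called 0. The shares of all genes called were then 0.251%, 0.888%, 0.797%, 0.410%, 0.167% and 0.0304%.

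The member median with the block was 0.15, 0.28, 0.18, 0.20, 0.15 and −0.01 over the 6 times, beside values between −0.04 and −0.01 over all genes. At 15 min the median differences by experiment were −0.08, 0.03, 0.51 and 0.38, again larger in experiments 3 and 4. Astrocyte marker sums at 15 min were 10.7, 9.72, 18.5 and 9.99 CPM in donors and 8.92, 10.1, 39.9 and 27.2 CPM in acceptors, so acceptors held more of this RNA in the same 2 experiments. Microglia marker sums were 7108, 4982, 6259 and 1990 CPM in donors and 6076, 5702, 7292 and 4324 CPM in acceptors, with the widest gap in experiment 4. The part of these signals in the member differences was not tested. Values of experiments 1 and 2 alone are given with the genes, but they differ from experiments 3 and 4 in passage as well.

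At 15 min Hk2 measured 51.9, 69.7, 54.6 and 104 CPM in donors and 30.8, 51.8, 35.9 and 34.0 CPM in acceptors. Only donors' lowest 51.9 CPM came near the acceptors' highest 51.8 CPM, and Hk2 was higher by 0.80 (SE 0.19, adjusted p = 0.00525 with the block; 0.256 without). Slc2a1 measured 100.04, 81.1, 158 and 107 CPM against 76.8, 38.7, 61.2 and 68.4 CPM, without overlap. The difference was 0.85 (SE 0.20, adjusted p = 0.0039 with the block; 0.231 without).

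Pfkfb3, which makes the activator of phosphofructokinase and so speeds the committed step of glycolysis, differed in the same way. At 15 min donors had 56.9, 54.8, 72.2 and 74.5 CPM and acceptors 29.6, 30.2, 42.3 and 35.4 CPM, a clear gap in every experiment. The difference was 0.90 (adjusted p = 0.00103 with the block; 0.139 without), and it was called whichever experiment was left out and in experiments 1 and 2 alone (0.90, adjusted p = 0.00452). At 0 min it was 0.90 (adjusted p = 0.008) and at 30 min 0.68 (adjusted p = 0.0125), and from 60 min on it was 0.28 or less and not called. Pfkfb3 had not been called in aSyn-treated against untreated cells (0.23, adjusted p = 0.404 with the block), where untreated cells measured 37.4, 61.4, 51.9 and 45.7 CPM and acceptors at 15 min gave −0.54 against them, not called.

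The further enzymes called at 15 min were Ldha, Pgk1, Hk3 and Pgam1. Ldha had 294, 298, 521 and 421 CPM in donors and 297, 223, 261.1 and 230 CPM in acceptors (0.56, adjusted p = 0.0229). Pgk1 had 424, 383, 617 and 723 CPM against 450, 271, 362 and 369 CPM (0.52, adjusted p = 0.0431). In both genes experiment 1 showed no excess in donors and experiments 3 and 4 the largest.

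Hk3 measured 154, 161, 232.1 and 246.7 CPM in donors and 138, 126, 193 and 112 CPM in acceptors, higher in each experiment (0.47, adjusted p = 0.0366). Pgam1 measured 546, 472, 873 and 708 CPM against 560, 359, 527 and 526 CPM (0.38, adjusted p = 0.0479). In experiments 1 and 2 alone, none of these 4 was called, with values from 0.17 to 0.25, while Slc2a1 (0.70, adjusted p = 0.0182) and Pfkfb3 were. Hk2 gave 0.58 there (adjusted p = 0.0694).

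At the other times the calls fell mostly on the same few genes, in the same experiments. Hk2 differed by 0.88 at 0 min, 0.93 at 30 and 0.72 at 60 min (adjusted p = 0.0136, 0.00114 and 0.026 with the block). Slc2a1 differed by 0.85, 0.74 and 0.76 at these times (adjusted p = 0.0218, 0.011 and 0.0252). At 150 min only Hk3 was called, at 161, 184, 211 and 261.9 CPM against 136, 133, 164 and 115 CPM (0.57, adjusted p = 0.0162), and at 300 min no member was, with 4 at an unadjusted p under 0.05 in the blocked fit beside 15.4% of all genes.

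Calls outside this core were few. Pdk3 was higher in donors at 0 min, at 19.96, 12.02 and 21.1 CPM against 11.4, 9.504 and 13.2 CPM (0.61, adjusted p = 0.0439). Ankrd37 was the 1 member called lower, at 30 min, with 3.76, 1.03, 2.99 and 2.84 CPM in donors and 8.44, 2.09, 4.57 and 14.7 CPM in acceptors (−1.33, adjusted p = 0.0123). The gap was widest in experiment 4, and without experiment 4 or experiment 1 the call was lost (adjusted p = 0.0943 and 0.0807). Vegfa differed by 2.61 at 0 min and 1.82 at 15 min and was not called (adjusted p = 0.0636 and 0.0829).

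**Figure D3:**
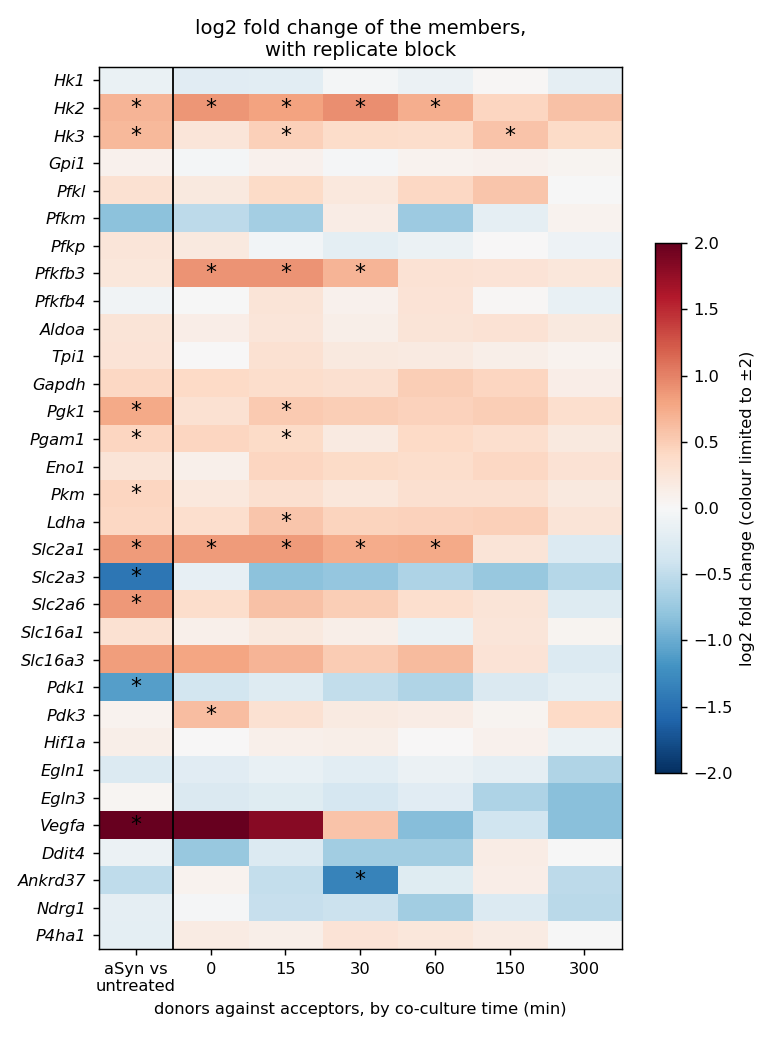
Log2 fold change with the experiment as a block for the 32 members (rows) in aSyn-treated against untreated cells and in donors against acceptors at 6 co-culture times in min (columns). Red is higher in the aSyn-carrying cells and blue lower, colours stop at 2 and −2, and asterisks mark the 10 calls of the first column and the 18 calls of the others. Hk2 and Slc2a1 carry an asterisk in the first column and at 0, 15, 30 and 60 min, Pfkfb3 only at 0, 15 and 30 min, and the 300 min column has none.

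Most of these calls were lost when 1 experiment was left out, and the blocked fits then made 21, 5, 6 and 14 member calls over the 6 times without experiment 1, 2, 3 or 4. Depending on the time, these fits called from 0.142% to 6.35%, 0.232% to 5.23%, 0.970% to 5.34% and 1.04% to 10.7% of all genes. Hk2 at 30 min and Pfkfb3 at 15 min were called whichever experiment was left out. Hk2 was lost at 15 min without experiment 4 (adjusted p = 0.0749), at 0 min without 1, 2 or 3, and at 60 min without any single experiment. Slc2a1 was lost at 15 and 30 min without 2 or 3 (0.0636 and 0.0816 at 15 min), and at 0 and 60 min without 1, 2 or 3. Pfkfb3 was lost at 0 min without 1, 2 or 3 and at 30 min without 1 or 3. Ldha, Pgk1 and Pgam1 at 15 min were called without experiment 1 (0.00722, 0.0035 and 0.00949) and lost without 2, 3 or 4. Hk3 was lost at 15 min without any single experiment and at 150 min without 2 (0.0953), and Pdk3 at 0 min without 1, 2 or 3.

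Groups that did not overlap were counted as well. At 15 min Hk2, Pfkfb3 and Slc2a1 lay wholly above the acceptors, 3 of 32 members beside 3.12% of all genes. At 0 min these were Hk2, Pfkfb3, Slc16a3 and Vegfa (8.63% of all genes), at 30 and 60 min Slc2a1 (3.31% and 3.85%), at 150 min Ldha (2.36%) and at 300 min Hk3, Aldoa and Pdk3 (3.15%). Wholly lower were Pfkm at 0 min (8.13%) and Ndrg1 at 60 min (3.95%).

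Change over the co-culture itself was tested between 15 and 300 min and over all 6 times. edgeR called 0 members in donors, in acceptors, in the difference between the populations and in either test over 6 times, with and without the block. DESeq2 called 0. Between 15 and 300 min, 1 member (Vegfa) had an unadjusted p under 0.05 in donors, 0 in acceptors and 1 (Slc2a1) in the difference without the block, beside 3.78%, 2.16% and 1.78% of all genes. With the block these counts were 3, 2 and 3, beside 10.5%, 5.73% and 4.68%. The tests over 6 times gave 0 members in each population without the block (1.85% of all genes in donors and 1.84% in acceptors), and 2 in donors (7.50%) and 3 in acceptors (6.44%) with it. Calls over all genes between 15 and 300 min made up 0.0759% in donors, 0% in acceptors and 0% in the difference, or 0.714%, 0% and 0.0152% with the block. In the tests over 6 times they made up 0.0607% in donors and 0.00759% in acceptors, or 0.623% and 0.114% with the block.

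Slc2a1 had the clearest difference between the populations. In donors it went from 100.04, 81.1, 158 and 107 CPM at 15 min to 69.2, 47.3, 83.9 and 92.7 CPM at 300 min. In acceptors it went from 76.8, 38.7 and 68.4 CPM to 68.1, 46.1 and 141 CPM in experiments 1, 2 and 4, the ones with both libraries. Donors gave −0.61 and acceptors 0.51 with the block, and the difference between these was −1.12 (SE 0.29, unadjusted p = 3.55e-04, adjusted p = 0.389). The acceptor value leans on experiment 4. Pfkfb3 gave −0.44 in donors (adjusted p = 0.335), and without experiment 4 the blocked fit called it, Slc2a1 and Vegfa lower at 300 than at 15 min. For that fit too, the share of all genes called is not given here.

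**Figure D4:**
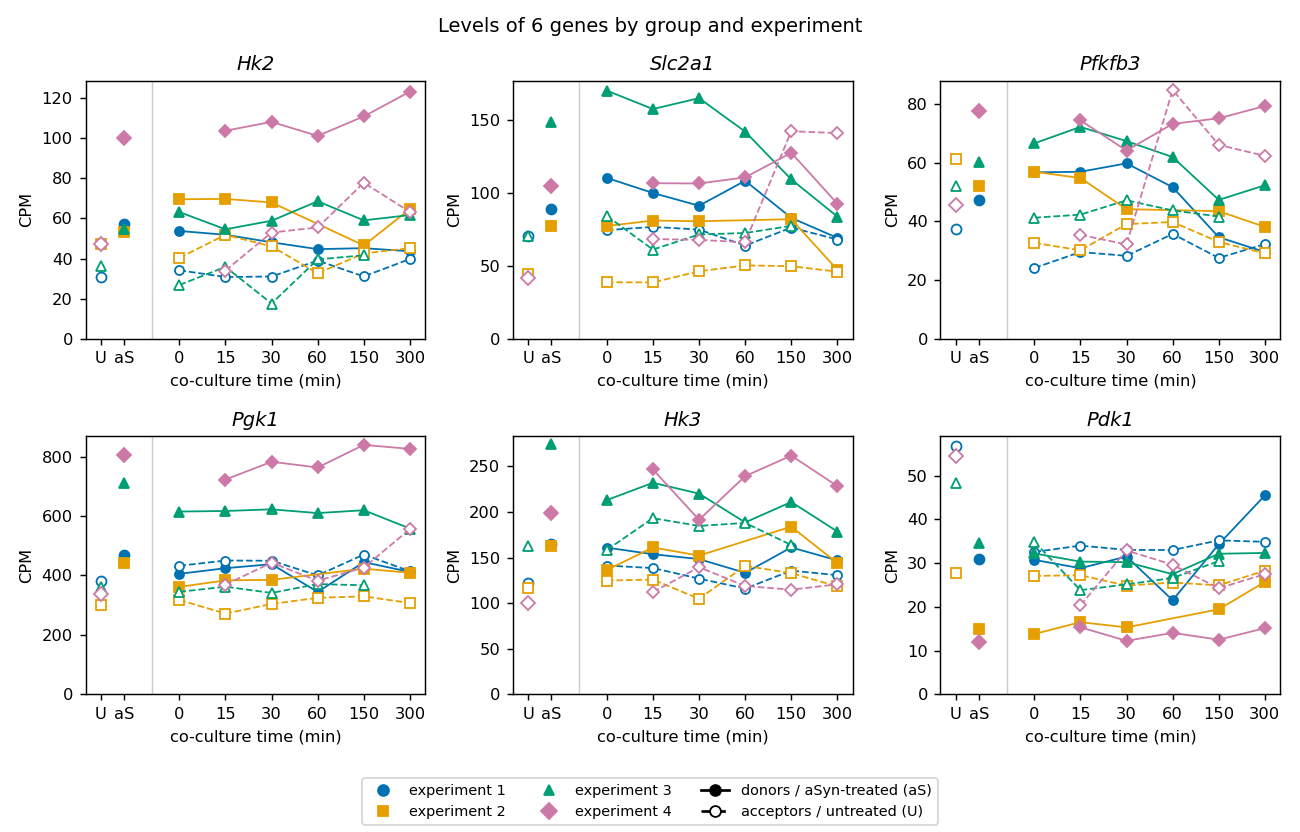
Levels in CPM of Hk2, Slc2a1, Pfkfb3, Pgk1, Hk3 and Pdk1 in each experiment over the co-culture in min, with the 6 times drawn at equal steps. Filled points with solid lines are donors, open points with dashed lines acceptors, and U and aS at the left are untreated and aSyn-treated cells. Donor Slc2a1 at 300 min lies between 47.3 and 92.7 CPM, below its 15 min value in each experiment, while donor Hk2 and Pgk1 of experiment 4 reach 123 and 826 CPM.

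Some of the other hypoxia-linked genes called in these comparisons are given here. Bhlhe40, a HIF-induced repressor of transcription, was higher in donors than in acceptors without the block at 0 min (2.21, adjusted p = 0.0259). More were called there with the block, beside 4.22% of all genes. Hilpda, a lipid-droplet gene (1.81, adjusted p = 0.00127), and Nos2 (3.96, adjusted p = 0.0311, at 3.52 CPM or less) were higher, and Cited2 was lower (−0.74, adjusted p = 0.0127). Calls in both directions were also made at 15, 30, 60 and 150 min. With the block, falls in donors at 300 min against aSyn-treated cells included those of Bhlhe40 (−1.31) and Hilpda (−1.29). In acceptors at 60 min against untreated cells Hilpda was higher with the block (1.05), at 39.3, 30.4, 61.8 and 309 CPM against 34.5, 29.8, 27.3 and 38.3 CPM, with most of the excess in experiment 4.

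Over all 52 units, the shares of a gene's variance in log2 CPM that went with the group and with the experiment were computed. The group's share had a median of 28.0% over the members, beside 25.0% over all genes. The experiment's share had a median of 40.4%, beside 33.9%. These shares were not adjusted for the number of groups or experiments. A split into 14 groups takes up a sizeable share even without a group effect, and more than the split by experiment. The medians therefore do not show a group effect, and group and experiment shares cannot be compared with each other. Pkm, Slc2a1, Hk2 and Hk3 had the largest group shares, at 49.8%, 48.1%, 47.1% and 46.9%. Slc16a1, Pfkfb4 and Hif1a followed the experiment most, at 85.2%, 80.99% and 75.9%. Vegfa had the widest range of group means, 10.2-fold from 3.66 CPM in untreated cells to 37.5 CPM in acceptors at 60 min, and Gpi1 the narrowest, 1.15-fold.

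With experiment means removed, several glycolytic enzymes moved closely together over the 52 units. Pearson r was 0.92 for Pgk1 and Pkm, 0.92 for Aldoa and Pgam1, and 0.91 for Pgk1 and Ldha. The most negative pair was Hk3 and Pdk1, at −0.66. These units share experiments, dishes and sequencing depth, so the coefficients are a description only.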

How the data were processed

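For the 54 libraries the authors deposited unnormalized read counts by gene symbol. The authors also deposited a normalized signal, made by DESeq2 from the counts per the file headers. In a check, 100% of its values equalled the count over the library's size factor (tolerance 0.051), and it was not used further. STAR, Partek, DESeq2 and mm10 are named per the submitters' processing notes; annotation, counting settings, treatment of shared reads and use of strand are not given in the sources used here. Libraries were made with QuantSeq 3′ FWD and read as 50 bp single reads, per the labels' protocols, so counts come from transcript 3′ ends. The 3′ ends of Hk3, Pfkp, Tpi1, Gapdh, Slc2a1, Ankrd37, Ndrg1, Hif1a and 1 of 2 Aldoa entries overlap a gene on the opposite strand, and if strand was not used their reads cannot be told apart; Hif1a also overlaps one on its own strand, which strand would not resolve.

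Untreated libraries with the same replicate number (chi-square per degree of freedom 12.1 and 10.3, other untreated pairs 24.2 to 288) were summed, giving 52 units. CPM are scaled by TMM. edgeR 4.0.16 (limma 3.58.1, R 4.3.3) fitted group means over 14 groups after filterByExpr (minimum count 10), with the robust quasi-likelihood F test and Benjamini-Hochberg adjustment over all 13169 genes at 0.05, without and with replicate number as a block. Replicate numbers stand in the titles and carry 1 passage label each; in 21 comparisons the deviations of same-numbered libraries correlated at 0.199 or more (means 0.339 to 0.593), so they pair the samples. The coefficient of biological variation was 38.1% without the block and 21.0% with it. The column names of experiment 4 carry a number series of their own, which the labels do not explain. This series cannot be told apart from experiment 4 itself, and values without experiment 4 are those of the other series. The scripts were tested on simulated data.

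Alternatives were DESeq2 1.42.0, RLE scaling, no filter, only the groups compared, unsummed untreated libraries, and each experiment left out; leaving out experiments 3 and 4 together was chosen after seeing the data. The members, gene lists and tests were chosen with earlier results of these data known. Members called without the block, then with it, were given per unit, up to 14 per comparison, and of other pathway genes at most the 4 largest rises and falls. Gene positions are from GENCODE M21 (GRCm38), promoters from RefSeq (GRCm38.p6, none for Slc2a3 and Ndrg1); shared 3′ words were counted over 300 bases. Of the other pathway genes that this rule selects, 1 is not reported here.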

Additional observations from a re-analysis of the deposited data

Results flagged for a closer look

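In groups of 4 units, 5 of 140 gene and group combinations, over 14 members, held 1 value far from the other 3 by Dixon's 95% critical value; chance gives about 1 in 20. Hk2 in aSyn-treated cells was 99.9 CPM in experiment 4, with the others at 53.4 to 57.2 CPM. Vegfa in experiment 3 was 42.7 CPM in aSyn-treated cells (others 11.3 to 15.4 CPM) and 48.3 CPM in donors at 15 min (others 12.6 to 17.8 CPM). Pfkfb3 in acceptors at 60 min was 84.8 CPM in experiment 4 (others 35.7 to 43.8 CPM), the same library in which Vegfa reached 105 CPM. Pgam1 in acceptors at 15 min was 359 CPM in experiment 2 (others 526 to 560 CPM). The Hk2 and Vegfa values enter the calls for aSyn exposure given above, and leaving out the experiment concerned removes each of these 2 calls. The Hk2 call was also lost without experiment 1, and Vegfa was called in experiments 1 and 2 alone.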

How the results depend on the processing

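Without the replicate block, the main edgeR fit called 0 members in any comparison, as it did with RLE scaling, without the filter, or with only the groups compared. Some were called without the block when an experiment was left out or untreated libraries were kept separate. The latter fit counts same-numbered untreated libraries as replicates. In aSyn-treated against untreated cells the count became 10 with the replicate block, 10, 9, 6 and 7 with the block and experiment 1, 2, 3 or 4 left out, 9 with the block and experiments 3 and 4 left out, 4 with DESeq2 and 4 with untreated libraries kept separate (Hk3, Pgk1, Pkm and Slc2a1); the calls over all genes were 329 without the block, 2500 with it, 616 with DESeq2, 39 with only the groups compared, 2074, 1801, 1337 and 1596 with the block and experiment 1, 2, 3 or 4 left out, and 1206 without experiments 3 and 4. For donors against acceptors over 6 times it became 18 with the block, 5 to 21 with 1 experiment left out, 14 without experiments 3 and 4, and 0 to 2 without the block and 1 experiment (Pfkfb3 at 0 and 15 min without experiment 4). For acceptors against untreated cells it became 2 with the block, 0 to 3 with 1 experiment left out, 5 without experiments 3 and 4, and 1 with DESeq2. For donors against aSyn-treated cells, 300 against 15 min and the test over donor times, the block left 0, with 1 experiment left out 0 to 2, 0 to 3 and 0 to 3, and without experiments 3 and 4 it gave 2, 2 and 2. The test over acceptor times stayed at 0 throughout. Among 30 gene values that the report turns on, 1 changed sign: Vegfa in acceptors at 60 min, −0.16 with the block and without experiments 3 and 4. Apart from the calls given in the report, the replicate block changed no other call of a member. The cause of these changes was not tested beyond the lower coefficient of variation with the block. Members at a few CPM, such as Slc2a3 with 9 counts in 1 library, are the least precisely measured.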
